A study of Homo sapiens with 12 samples.

Results

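A set of 48 genes of DNA replication and S phase was followed in RNA from HEK293 cells, a human embryonic kidney line, with and without the kinase AMPK. The set was named gene by gene: 15 genes of origin recognition and licensing, 6 of helicase activation, and 8 of the replicative polymerases and primase. A further 11 were of the clamp, its loader, single-strand binding and lagging-strand maturation, and 4 of nucleotide supply and uracil removal. The last 4 were the cyclins CCNE1 and CCNE2, E2F1 and SLBP, called the G1/S switch below for short. SLBP itself is a binding protein of histone mRNA. All 48 were found among the 26058 genes of the deposited table, and all 48 had a mean of at least 0.5 RPKM (reads per kilobase of gene, scaled to the size of the library), the minimum for a test. The wild-type line (WT) was compared with a CRISPR-Cas9 derivative that lacks both catalytic subunits of AMPK, the energy-sensing kinase (AMPK KO). The sources used here did not say whether the derivative is a single clone. All cells were held for 24 h in medium with 0.1% serum per the sample labels, while the study's general methods give another percentage for starvation. They then received, per the sample labels, 0.025% of the solvent DMSO for 50 min, the same DMSO for 20 min followed by epidermal growth factor for another 30 min (DMSO+EGF), or 25 µM cordycepin for 20 min followed by EGF and cordycepin for 30 min (cordycepin+EGF). Cordycepin is 3′-deoxyadenosine, an adenosine analogue without the hydroxyl group from which an RNA chain is extended. The labels also give 20 min for DMSO alone in 1 place. The EGF concentration is given as 15 in units that differ between sources (nM or µM). Each of the 6 groups had 2 libraries, named replicates 2 and 3 and described as biological replicates. Replicate 1 was discarded by the authors as an outlier and was not analysed here. With n = 2, both values are printed in place of a mean and SD, in the order replicate 2, replicate 3.

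DNA replication is prepared in G1, when the origin recognition complex (ORC), CDC6 and CDT1 load the MCM2-7 ring onto DNA. This step is blocked later by geminin (GMNN). Cyclin E with CDK2 and the kinase CDC7 then recruit CDC45 and GINS, which turn the ring into the moving helicase. Primase and polymerase alpha lay down primers, polymerases epsilon and delta copy the strands, and the sliding clamp PCNA is loaded by RFC. Most of these genes are transcribed under E2F transcription factors when a cell leaves quiescence, and growth factors act on that step through cyclin D and the retinoblastoma protein over many hours. A stimulation of 30 min is therefore short against the known course of S-phase entry. This is the general course, and whether HEK293 cells follow it was not tested.

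The depth of the libraries was uneven. Reads recovered from the RPKM values and summed over listed genes came to 4004047 in WT DMSO replicate 3 and to between 12669353 and 26421456 in the other libraries. The replicates of WT DMSO correlated least (r = 0.918 across genes on the log2 scale, against 0.961 to 0.977 in the other groups). The 48 genes held 0.618% to 0.758% of reads per library. The fewest reads behind any of their values were 54, for RPA3 in WT DMSO replicate 3, and the most were 17600, for MCM4. PRKAA1, one of the knocked-out genes, had 11.2 to 21.9 RPKM in WT and 7.03 to 8.51 in AMPK KO, and PRKAA2 had 6.78 to 12.1 and 5.39 to 7.43. RNA of both genes was thus still read in AMPK KO, at lower levels for PRKAA1 than in any WT library. Of the HEK293 markers, VIM, KRT8, KRT18, NEFL and CDH2 had 8 to 82.3 RPKM, while the kidney lineage factors PAX2 and LHX1 stayed below 1 RPKM and NEFM at or below 0.342. Of markers of other cells, PTPRC, ESR1, COL1A1 and CD14 reached at most 2.84 RPKM, and the others (CD3E, ALB, HBB and KRT5) were not among the listed genes.

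The promoters are shown first, since E2F sites are the feature for which these genes are known. A RefSeq promoter table (GRCh38.p14, 250 bases before to 50 after the start) held 41 of the 48 genes. Only the first listed promoter of each member was counted, while the shares over all count every promoter of the table. The latter were not filtered by gene type or expression. A listed start can lie far from the gene's outermost start: the GINS1 window began at chr20:25407423 and the gene at 25391008. Any of 4 spellings of the E2F core (TTCCCGC as the first spelling, TTCGCGC as the next, then the spelling TTGCCGC and finally the spelling TTGGCGC, on either strand) was present in 29 of these 41 promoters (70.7%), against 4553 of all 35116 promoters of the table (13%). At least 2 such matches were present in 14 (34.1%), against 1.77% of all promoters. The members' promoters were richer in GC (median 66% against 58.7%). Among promoters with at least 55% GC the shares were 71.8% and 19.5%. The CCAAT box, the motif of NF-Y, was present on either strand in 24 of 41 (58.5%) and in 34.6% of all. The reverse complement of TTGGCGC is GCGCCAA, which overlaps a CCAAT box when T follows, as it does in the POLE promoter printed next.

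Stretches of 120 bases that end just before the annotated start are shown for 4 genes. ORC2 and POLE were taken as the only members called in any comparison of limma's fit to all libraries. POLA1 was taken because its stretch holds a pair of matches, and PCNA because it had the highest mean RPKM. Each stretch is printed 5′ to 3′ on the strand of its gene, with E2F core matches in capitals. The regions are chr2:200963681-200963800 (minus strand), chr12:132687377-132687496 (minus strand), chrX:24693753-24693872 (plus strand) and chr20:5126627-5126746 (minus strand), in that order.
ORC2: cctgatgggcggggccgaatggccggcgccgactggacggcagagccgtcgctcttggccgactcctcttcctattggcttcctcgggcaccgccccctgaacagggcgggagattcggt
POLE: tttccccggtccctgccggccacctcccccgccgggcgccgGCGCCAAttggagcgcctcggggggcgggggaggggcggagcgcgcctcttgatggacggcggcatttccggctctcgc
POLA1: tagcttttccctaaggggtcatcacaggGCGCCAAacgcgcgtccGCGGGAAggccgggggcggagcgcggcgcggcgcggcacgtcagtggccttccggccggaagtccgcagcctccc
PCNA: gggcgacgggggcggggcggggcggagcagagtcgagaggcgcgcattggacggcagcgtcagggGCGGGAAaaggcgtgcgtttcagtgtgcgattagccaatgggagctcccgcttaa

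The first base of the match lay 113 bases before the RefSeq start in POLE, 137 and 120 bases before it in POLA1, and 59 bases before it in PCNA. In the full window ORC2 held no match, POLE 2, POLA1 3 and PCNA 1. ORC2, the member with the smallest p of any cell-line comparison, was thus among the 12 members without a match to these letters. A match is a description of letters and not evidence of binding.

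Levels are first compared in RPKM, which divides by gene length. The members spanned from 2.89 to 203 RPKM as means over the 12 libraries. PCNA, the clamp that tethers the polymerases, was first with 134 to 251 RPKM, and its lowest value was above the highest value of every other member. MCM7, MCM3 and MCM4, subunits of the helicase ring, followed with 75 to 118, 65 to 109 and 57.8 to 97.1 RPKM, and RFC3, a small subunit of the clamp loader, with 54.2 to 88.1 RPKM. The ranges of these neighbours overlapped. The licensing factor CDT1 (46.4 to 89.4 RPKM), the large ribonucleotide reductase subunit RRM1 (37.8 to 63.6) and POLE (31.4 to 58.3) came next. The lowest were CCNE2 (3.91 to 5.02), RPA3 (3.4 to 5.6) and POLA2, the non-catalytic B subunit of polymerase alpha (2.13 to 3.37). The range of CCNE2 lay within that of RPA3, while the highest POLA2 value was just below the lowest RPA3 value. Complexes were uneven in RPKM. Within the clamp loader the means ran from 17.9 RPKM for RFC1 to 72.7 for RFC3. Within MCM2-7 they ran from 25.4 for MCM5 to 102 for MCM7. Within GINS they ran from 6.45 for GINS3 to 15.4 for GINS2. The level of each member relative to other genes, and so this order, depends on the gene length used. In WT DMSO replicate 2, MCM5 (7268 bases) and MCM7 had 3284 and 6971 reads and 26.54 and 93.35 RPKM. The length was that of all annotated exons merged, except for MCM7, POLA2 and PRIM1. Their values matched whole reads only at a length (4386, 5568 and 2855 bases) below that of the annotation used here (4960, 12006 and 3309 bases). Exons of 15 members overlap a listed gene on the opposite strand. The libraries were stranded, but whether the counting used the strand was not stated. The overlap is widest for TYMS with ENOSF1 (39.9% of TYMS exon bases) and for CCNE2 with INTS8 (37%).

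**Figure D1:**
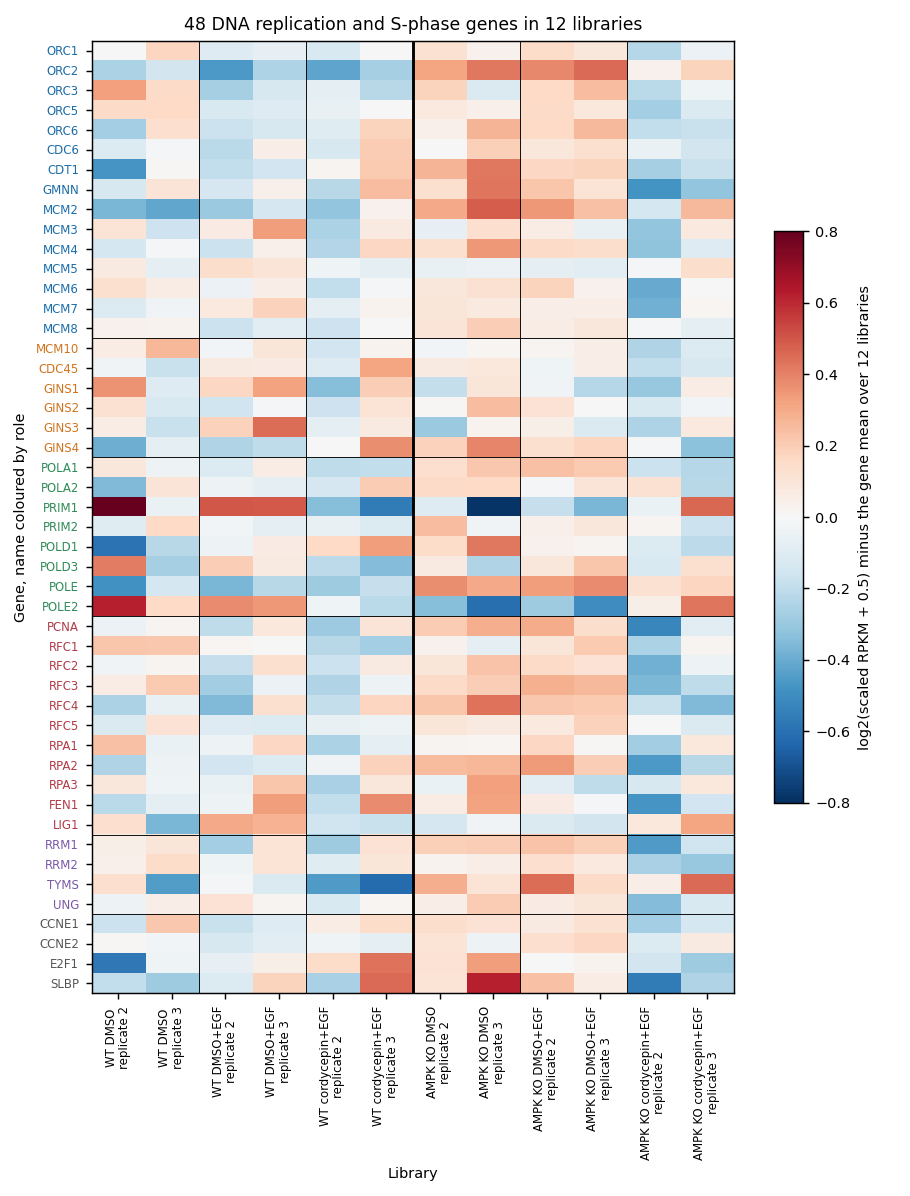
Each row is 1 of the 48 genes, each column 1 of the 12 libraries, and the colour is log2(scaled RPKM + 0.5) minus that gene's mean over the 12 libraries, with WT libraries left and AMPK KO libraries right of the heavy line; colours stop at 0.8 in each direction. ORC2 and POLE are higher in every AMPK KO library than in every WT library, and POLE2 and PRIM1 lie below their own means in the 4 AMPK KO libraries of DMSO and DMSO+EGF.

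The comparison of AMPK KO with WT asks how these genes differed between the lines before any stimulus and under each treatment. Since a single derivative line was compared with WT, loss of the kinase and other differences between the lines cannot be told apart. In DMSO, 35 of the 48 genes had a higher mean in AMPK KO (51% of all genes tested did) and 13 a lower one (49%), with a median log2 fold change of 0.12 against 0.01 over all 22067 genes tested. In limma's fit 10 were higher at an unadjusted p under 0.05 (12% of all genes tested were) and 2 were lower (9.29%). The groups did not overlap for 23 that were higher (25.3% of all genes) and 5 that were lower (23.2%). After Benjamini-Hochberg adjustment over all genes no member passed 0.05, while 0.281% of all genes were called higher and 0.159% lower. Without WT DMSO replicate 3, the shallowest library, CDT1, E2F1, MCM2, ORC2, POLD1 and POLE were called higher (7.65% of all genes were) and POLE2 and PRIM1 lower (6.24%). The same 8 were called by limma's voom on the recovered reads with all libraries (4.83% of all genes higher and 3.4% lower). In DMSO+EGF, 36 genes were higher (49.5% of all genes) and 12 lower (50.5%), without overlap for 27 (31.3%) and 10 (31.6%). The median was 0.15 (all genes, -0.0047), 9 members were higher at an unadjusted p under 0.05 (11.1% of all genes) and 2 lower (11.4%). ORC2 and POLE were called higher after adjustment, as were 0.929% of all genes, and no member was called lower (0.807% of all genes were). With voom MCM2, ORC2, POLE and RFC3 were called higher (5.77% of all genes) and POLE2 lower (6.03%). In cordycepin+EGF, 17 genes were higher (51.6% of all genes) and 31 lower (48.4%), without overlap for 8 (23.7%) and 11 (22.1%). The median was -0.09 (all genes, 0.01), with 3 members higher (7.1%) and 6 lower (6.64%) at an unadjusted p under 0.05 and none called (0.0453% and 0.0725% of all genes were), against TYMS alone with voom (1.06% of all genes higher). Counts at an unadjusted p under 0.05 moved when 1 library was left out. In DMSO, 6 were higher without WT replicate 2 or without AMPK KO replicate 3. In DMSO+EGF, 2 were higher without WT replicate 2, 4 without AMPK KO replicate 2 and 5 without AMPK KO replicate 3, and 1 was lower whichever of the 4 libraries was left out. In cordycepin+EGF, 0 were lower without WT replicate 3, and 7 were higher without AMPK KO replicate 2. The 3 comparisons use separate libraries, but each shares its libraries with the treatment comparisons below. Of the 48 genes, 8 had a higher mean in AMPK KO under all treatments and 3 a lower one.

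ORC2, a core subunit of the origin recognition complex (GENCODE 44, chr2:200908977-200963680, minus strand), had 15.4 and 16.7 RPKM in WT DMSO, 13.5 and 15.9 in WT DMSO+EGF and 13.4 and 15.3 in WT cordycepin+EGF. In AMPK KO, ORC2 had 23.3 and 25.6 RPKM in DMSO, 24.5 and 25.7 in DMSO+EGF and 18.4 and 20.6 in cordycepin+EGF. All 6 AMPK KO libraries were above all 6 WT libraries, which held for 1.65% of all genes tested and, among the members, for ORC2 and POLE alone. The log2 fold change of ORC2 was 0.77 in DMSO+EGF (SE 0.116, adjusted p 0.0239), 0.57 in DMSO (SE 0.116, adjusted p 0.0629) and 0.45 in cordycepin+EGF (SE 0.116, adjusted p 0.219). POLE, the catalytic subunit of the leading-strand polymerase epsilon (chr12:132623753-132687376, minus strand), had, in WT, 31.4 and 40.3 RPKM in DMSO, 34.7 and 39.1 in DMSO+EGF, and 35.5 and 39 in cordycepin+EGF. In AMPK KO, POLE had 58 and 56.3 RPKM in DMSO, 56.7 and 58.3 in DMSO+EGF, and 46.8 and 49 in cordycepin+EGF, again without overlap. Its log2 fold change was 0.65 in DMSO+EGF (SE 0.127, adjusted p 0.0474), 0.65 in DMSO (SE 0.127, adjusted p 0.0571) and 0.38 in cordycepin+EGF (SE 0.127, adjusted p 0.276). Both calls in DMSO+EGF were lost when any 1 of the 4 libraries compared was left out, with adjusted p from 0.117 to 0.297. That of POLE was also lost without upper-quartile scaling (adjusted p 0.0535), with median-ratio scaling (0.055) and without the variance trend (0.0655).

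MCM2, a subunit of the helicase ring, had 30.7 and 29.9 RPKM in WT DMSO, 32.7 and 37.3 in WT DMSO+EGF and 31.2 and 40.8 in WT cordycepin+EGF. In AMPK KO, MCM2 had 49.6 and 57.4 RPKM in DMSO, 51.3 and 47.3 in DMSO+EGF, and 35.1 and 46.9 in cordycepin+EGF. The lines did not overlap in DMSO or in DMSO+EGF and did overlap in cordycepin+EGF, and the log2 fold change was 0.78 in DMSO (SE 0.164, adjusted p 0.0653). POLD1, the catalytic subunit of the lagging-strand polymerase delta, had, in WT, 14.9 and 19.6 RPKM in DMSO, 22.4 and 24.6 in DMSO+EGF, and 25 and 28.9 in cordycepin+EGF. In AMPK KO, POLD1 had 25.4 and 31.5 RPKM in DMSO, 23.6 and 23.3 in DMSO+EGF, and 20.5 and 19.3 in cordycepin+EGF. Only the WT DMSO group stood below the AMPK KO group of the same treatment (log2 fold change 0.69, SE 0.147, adjusted p 0.068), and in cordycepin+EGF the order was the opposite (log2 fold change -0.41, SE 0.147, adjusted p 0.301). CDT1, which brings the MCM ring to origins, had 46.4 and 65.5 RPKM in WT DMSO and 78.7 and 89.4 in AMPK KO DMSO (log2 fold change 0.58, SE 0.157, adjusted p 0.109). With EGF it had 57.2 and 59.8 RPKM in WT and 73.5 and 74 in AMPK KO, and with cordycepin+EGF 64.3 and 75.1 and 52.2 and 56.3. The AMPK KO values were thus above WT in DMSO and DMSO+EGF and below WT in cordycepin+EGF.

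E2F1, the transcription factor that drives G1/S genes, had, in WT, 26.9 and 39.6 RPKM in DMSO, 38.9 and 42.9 in DMSO+EGF, and 43.7 and 54.6 in cordycepin+EGF. In AMPK KO, E2F1 had 44 and 52.4 RPKM in DMSO, 40.6 and 41.4 in DMSO+EGF, and 35.2 and 32.3 in cordycepin+EGF. Its log2 fold change was 0.53 in DMSO (SE 0.18, adjusted p 0.157) and -0.51 in cordycepin+EGF (SE 0.18, adjusted p 0.293), so the order of the lines differed between these treatments. SLBP, the stem-loop binding protein of histone mRNA, had, in WT, 38.1 and 36 RPKM in DMSO, 41 and 51.1 in DMSO+EGF, and 35.7 and 60.2 in cordycepin+EGF. In AMPK KO, SLBP had 47.6 and 69.4 RPKM in DMSO, 52.3 and 46 in DMSO+EGF, and 28.7 and 36.3 in cordycepin+EGF. Its replicates lay far apart in WT cordycepin+EGF and in AMPK KO DMSO. CCNE1, the main cyclin E, had, in WT, 26.5 and 35 RPKM in DMSO, 26.8 and 28.7 in DMSO+EGF, and 30.6 and 33.3 in cordycepin+EGF. In AMPK KO, CCNE1 had 33.4 and 33.4 RPKM in DMSO, 31.9 and 32.9 in DMSO+EGF, and 24 and 26.6 in cordycepin+EGF. Its WT DMSO values enclosed those of AMPK KO DMSO. CCNE2, the other cyclin E, had, in WT, 4.41 and 4.35 RPKM in DMSO, 4.03 and 4.22 in DMSO+EGF, and 4.19 and 4.15 in cordycepin+EGF. In AMPK KO, CCNE2 had 4.82 and 4.38 RPKM in DMSO, 4.93 and 5.02 in DMSO+EGF, and 3.91 and 4.55 in cordycepin+EGF. No comparison of it reached an unadjusted p of 0.05. CDC6, the ATPase that loads the ring with CDT1, had, in WT, 28.9 and 31.2 RPKM in DMSO, 27.2 and 33.5 in DMSO+EGF, and 28 and 36.2 in cordycepin+EGF. In AMPK KO, CDC6 had 31.5 and 36.8 RPKM in DMSO, 33.7 and 34.5 in DMSO+EGF, and 29.3 and 27.7 in cordycepin+EGF. No comparison of CDC6 reached an unadjusted p of 0.05 either.

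Values ran in the opposite direction for a pair of genes of the polymerase group. POLE2, the B subunit of polymerase epsilon, had 9.98 and 7.18 RPKM in WT DMSO, 8.5 and 8.43 in WT DMSO+EGF and 6.04 and 5.38 in WT cordycepin+EGF. In AMPK KO, POLE2 had 4.93 and 4.1 RPKM in DMSO, 5.16 and 4.38 in DMSO+EGF, and 6.38 and 8.55 in cordycepin+EGF. The WT values were above those of AMPK KO in DMSO (log2 fold change -0.86, SE 0.196, adjusted p 0.0754) and in DMSO+EGF (log2 fold change -0.75, SE 0.196, adjusted p 0.0789), and below them in cordycepin+EGF. PRIM1, the catalytic subunit of primase, had 19.9 and 9.4 RPKM in WT DMSO, 14.1 and 14.2 in WT DMSO+EGF and 7.4 and 6.42 in WT cordycepin+EGF. In AMPK KO, PRIM1 had 9.04 and 5.57 RPKM in DMSO, 8.59 and 7.46 in DMSO+EGF, and 9.04 and 13.3 in cordycepin+EGF. The log2 fold change was -0.92 in DMSO (SE 0.34, adjusted p 0.178). The WT DMSO replicates were far apart, and replicate 3, the shallow library, was just above the higher AMPK KO DMSO value. TYMS, thymidylate synthase, had, in WT, 19.9 and 13.2 RPKM in DMSO, 18.2 and 17.2 in DMSO+EGF, and 12.8 and 11.7 in cordycepin+EGF. In AMPK KO, TYMS had 22.5 and 20.2 RPKM in DMSO, 25.2 and 20.4 in DMSO+EGF, and 18.3 and 24.6 in cordycepin+EGF. All AMPK KO values but 1 were above the highest WT value. The log2 fold change was 0.79 in cordycepin+EGF (SE 0.209, adjusted p 0.226). Its reads cannot be told apart from those of the antisense ENOSF1 if the counting ignored strand.

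**Figure D2:**
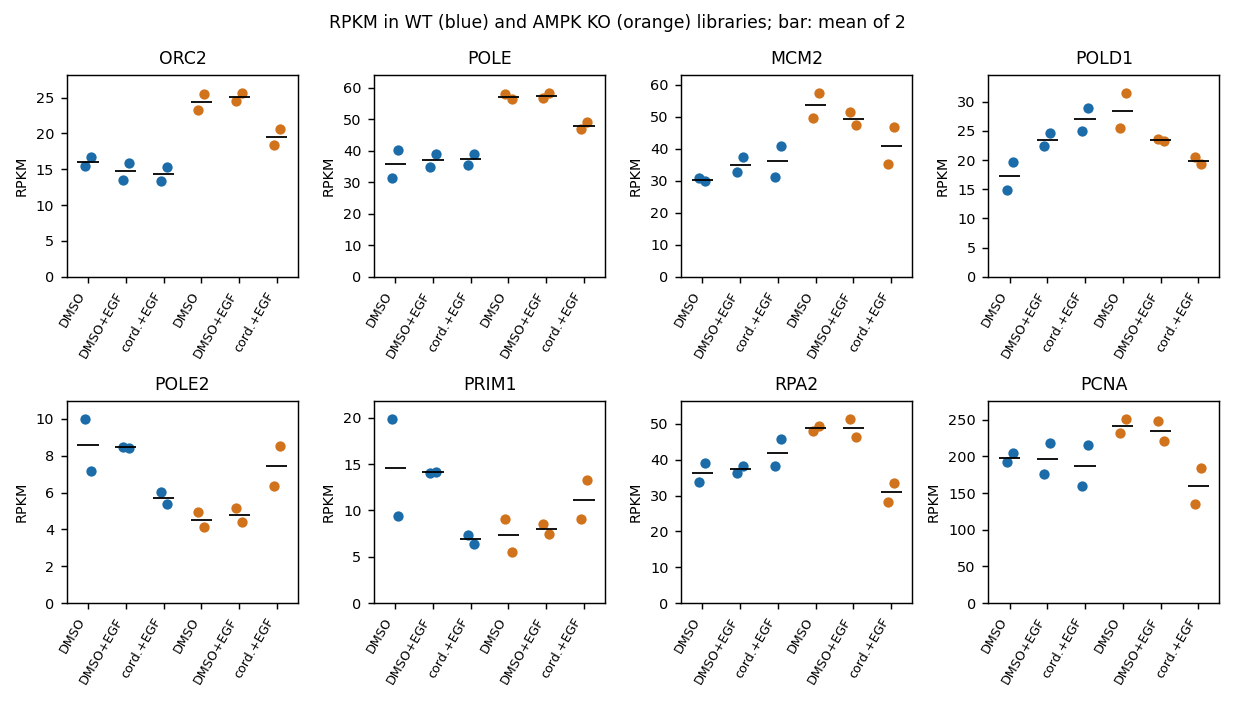
RPKM (y axis, from 0) of 8 genes in the 6 groups (x axis), with 1 point per library, WT in blue and AMPK KO in orange, and a bar at the mean of 2. ORC2 and POLE lie higher in every AMPK KO library. POLE2 lies at 7.18 to 9.98 RPKM in WT DMSO and WT DMSO+EGF. In AMPK KO DMSO and AMPK KO DMSO+EGF, POLE2 lies at 4.1 to 5.16 RPKM. The means of RPA2 and PCNA are lowest in AMPK KO cordycepin+EGF, though 1 PCNA point there lies above some WT points.

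By role, the median log2 fold change of AMPK KO over WT in DMSO was 0.15 for origin recognition and licensing (11 of 15 higher), 0.03 for helicase activation (3 of 6), 0.11 for polymerases and primase (5 of 8), 0.11 for the clamp and lagging-strand group (9 of 11), 0.12 for nucleotide supply (3 of 4) and 0.32 for the G1/S switch (4 of 4). In DMSO+EGF these medians, in the same order, were 0.21, -0.03, 0.06, 0.16, 0.18 and 0.18. In cordycepin+EGF they were -0.10, -0.10, 0.14, -0.14, -0.20 and -0.40. The 7158 protein-coding genes with a mean of at least 5 RPKM are a class that holds all members but CCNE2, RPA3 and POLA2. Their medians were 0.04, 0.08 and -0.08 in the 3 comparisons, the same sign as the members' 0.12, 0.15 and -0.09. In DMSO, 3949 of the class were higher and 3209 lower, 1166 and 666 at an unadjusted p under 0.05. In DMSO+EGF, 4230 were higher and 2928 lower, 1416 and 815 at that p. In cordycepin+EGF, 2722 were higher and 4436 lower, 423 and 834 at that p. Without overlap, 2209, 3238 and 1212 were higher and 1668, 2080 and 2416 lower, in the same order. No test was made of the members against those genes.

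**Figure D3:**
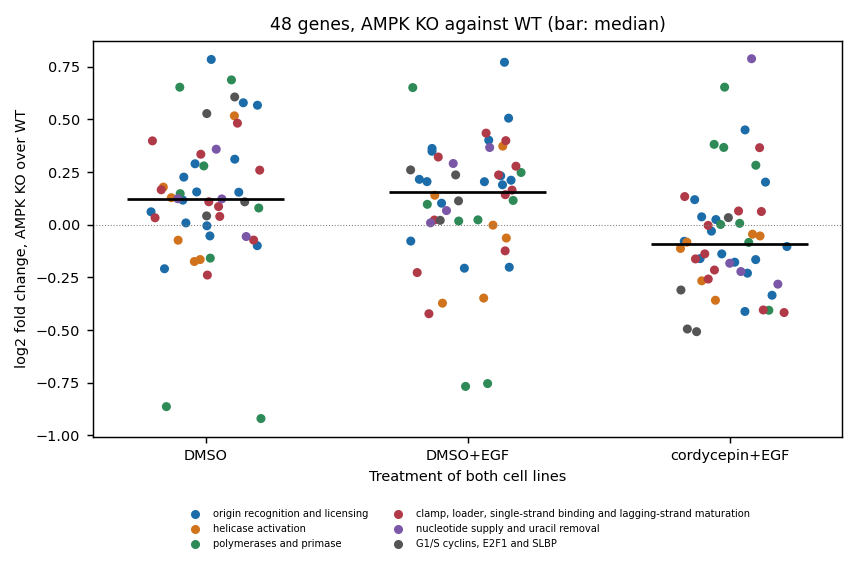
Each point is 1 of the 48 genes coloured by role, the y axis is the log2 fold change of AMPK KO over WT, the x axis the treatment of both lines, and the bar is the median. The medians are 0.12 in DMSO, 0.15 in DMSO+EGF and -0.09 in cordycepin+EGF, and the lowest points in the first 2 treatments are PRIM1 and POLE2.

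The comparison of DMSO+EGF with DMSO asks what 30 min of EGF did to these genes in each line. In WT, 24 genes had a higher mean with EGF (52.3% of all genes did) and 24 a lower one (47.7%), and the median log2 fold change was -0.01 (all genes, 0.02). The range was from -0.44 to 0.42. At an unadjusted p under 0.05, 2 were higher (6.18% of all genes) and 3 lower (3.53%), and none passed after adjustment (0.0227% of all genes were called higher and 0% lower). At an unadjusted p under 0.05, 0 were lower without WT DMSO+EGF replicate 2 and 0 higher without its replicate 3. Without WT DMSO replicate 2, which leaves the shallowest library alone in its group, LIG1 was called higher, as were 2.4% of all genes. The groups did not overlap for 9 genes that were higher (18.7% of all genes) and 8 that were lower (18%). In AMPK KO the median was -0.03 (all genes, 0.01), 23 genes were higher (51.4% of all genes) and 25 lower (48.6%), and the range was from -0.28 to 0.24. No member reached an unadjusted p of 0.05 (1.03% of all genes did as higher and 1.4% as lower) or was called (0.0136% and 0% of all genes were). With voom 0 were called in either line. The groups did not overlap for 7 that were higher (20.2% of all genes) and 11 that were lower (18.7%). A median SE of 0.15 on the log2 scale sets the precision of each of these values.

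ORC3, another subunit of the origin recognition complex, had the largest fitted decrease in WT. It had 39.8 and 35.5 RPKM in DMSO, 26.6 and 29.9 in DMSO+EGF and 29.4 and 27.2 in cordycepin+EGF, so both groups with EGF lay below DMSO (log2 fold change -0.44, SE 0.134, adjusted p 0.454). In AMPK KO the values were 36.2 and 30.0 RPKM in DMSO, 36 and 38.1 in DMSO+EGF, and 26.5 and 30.4 in cordycepin+EGF, with overlap between DMSO and DMSO+EGF (log2 fold change 0.18, SE 0.134, adjusted p 1). ORC5, a further subunit, had, in WT, 17.2 and 17.5 RPKM in DMSO, 14.4 and 14.8 in DMSO+EGF, and 14.6 and 15.5 in cordycepin+EGF. In AMPK KO, ORC5 had 16.5 and 16.3 RPKM in DMSO, 17.4 and 16.6 in DMSO+EGF, and 12.4 and 14 in cordycepin+EGF. Both WT groups with EGF lay below WT DMSO (log2 fold change -0.27, SE 0.0956, adjusted p 0.493 for DMSO+EGF). POLD1, whose levels are given above, was higher with EGF in both WT replicates (log2 fold change 0.42, SE 0.147, adjusted p 0.494) and lower in both AMPK KO replicates (log2 fold change -0.25, SE 0.147, adjusted p 1). RFC1, the large subunit of the clamp loader, had, in WT, 20.7 and 20.8 RPKM in DMSO, 18.2 and 18.3 in DMSO+EGF, and 14.8 and 14.7 in cordycepin+EGF. In AMPK KO, RFC1 had 18.3 and 17.3 RPKM in DMSO, 19.3 and 20.7 in DMSO+EGF, and 14.4 and 17.7 in cordycepin+EGF. In AMPK KO the DMSO+EGF libraries lay above those of DMSO (log2 fold change 0.17, SE 0.113, adjusted p 1). RPA3, the smallest subunit of the single-strand binding protein, had, in WT, 4.54 and 4.15 RPKM in DMSO, 4.14 and 5.17 in DMSO+EGF, and 3.4 and 4.55 in cordycepin+EGF. In AMPK KO, RPA3 had 4.1 and 5.6 RPKM in DMSO, 4.03 and 3.65 in DMSO+EGF, and 3.74 and 4.45 in cordycepin+EGF. Both AMPK KO DMSO+EGF values of RPA3 were below those of DMSO (log2 fold change -0.28, SE 0.19, adjusted p 1).

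The comparison of cordycepin+EGF with DMSO+EGF asks what cordycepin did in stimulated cells of each line. In WT, 25 genes had a higher mean with cordycepin (53.5% of all genes did) and 23 a lower one (46.5%), with a median of 0.02 (all genes, 0.03). At an unadjusted p under 0.05, 1 was higher (8.86% of all genes) and 4 were lower (7.13%), but at most 2 were lower whichever of the 4 libraries was left out. None was called, against 0% of all genes higher and 0.00453% lower, and with voom 0 were called (1.77% and 1.78% of all genes). The groups did not overlap for 10 genes that were higher (29.2% of all genes) and 12 that were lower (24.7%). The median rested on replicate 3 of WT cordycepin+EGF, without which it was -0.15. The smallest p-values in WT were those of PRIM1 (log2 fold change -0.94, SE 0.34, adjusted p 0.279), POLE2 (log2 fold change -0.49, SE 0.196, adjusted p 0.289) and LIG1, the DNA ligase that joins Okazaki fragments (log2 fold change -0.46, SE 0.164, adjusted p 0.277). LIG1 had, in WT, 8.74 and 6.09 RPKM in DMSO, 10.0 and 9.99 in DMSO+EGF, and 6.91 and 6.96 in cordycepin+EGF. In AMPK KO, LIG1 had 7.23 and 7.98 RPKM in DMSO, 7.37 and 7.15 in DMSO+EGF, and 8.19 and 9.79 in cordycepin+EGF. TYMS, described above, was lower by a similar amount (log2 fold change -0.47, adjusted p 0.314). For PRIM1, POLE2 and LIG1 both WT cordycepin+EGF libraries lay below both WT DMSO+EGF libraries.

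In AMPK KO, 42 of the 48 genes had a lower mean with cordycepin (44.9% of all genes did) and 6 a higher one (55.1%), and the median log2 fold change was -0.24. At an unadjusted p under 0.05, 18 were lower (10.1% of all genes) and 1 was higher (11.7%). There were 4 lower without DMSO+EGF replicate 2, 7 without DMSO+EGF replicate 3, 6 without cordycepin+EGF replicate 2 and 18 without cordycepin+EGF replicate 3. The groups did not overlap for 35 that were lower (27% of all genes) and 4 that were higher (32.2%). No member was called after adjustment, while 0.0861% of all genes were called lower and 0.385% higher. With voom POLA1, RFC3 and RPA2 were called lower (2.37% of all genes) and none higher (3.02%). The median over all genes tested was 0.06, but over the 7158 protein-coding genes with a mean of at least 5 RPKM it was -0.17, and 5072 of those were lower. Of these 7158 genes, 1740 were lower and 348 higher at an unadjusted p under 0.05. Without overlap between the groups, 3853 of them were lower and 1173 higher. Lower means were thus common among well expressed coding genes in this comparison, and no test set the members apart from them. With all libraries the 18 were ORC1, ORC2, ORC3, ORC5, ORC6, CDT1 and GMNN of licensing, POLA1 of the polymerases, PCNA, RFC1, RFC2, RFC3, RFC4 and RPA2 of the clamp and loader group, RRM1, RRM2 and UNG of nucleotide supply and uracil removal, and CCNE1. The gene that was higher was POLE2. By role, the median was -0.31 for licensing (14 of 15 lower), -0.15 for helicase activation (5 of 6), -0.15 for polymerases and primase (6 of 8), -0.34 for the clamp and lagging-strand group (9 of 11), -0.35 for nucleotide supply (4 of 4) and -0.27 for the G1/S switch (4 of 4).

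RPA2, the middle subunit of the single-strand binding protein, had 48.1 and 49.5 RPKM in AMPK KO DMSO, 51.3 and 46.4 in DMSO+EGF and 28.2 and 33.7 in cordycepin+EGF. In WT, RPA2 had 33.8 and 39.1 RPKM in DMSO, 36.4 and 38.2 in DMSO+EGF, and 38.4 and 45.7 in cordycepin+EGF. Both cordycepin libraries were the lowest of AMPK KO, while those of WT were above both WT DMSO+EGF libraries. Its log2 fold change with cordycepin was -0.61 in AMPK KO (SE 0.127, adjusted p 0.0644) and 0.21 in WT (SE 0.127, adjusted p 0.431). RFC3 had, in AMPK KO, 80.2 and 84.3 RPKM in DMSO, 88.1 and 86.5 in DMSO+EGF, and 54.2 and 61.1 in cordycepin+EGF. In WT, RFC3 had 74.5 and 83.3 RPKM in DMSO, 59.7 and 71.2 in DMSO+EGF, and 59.3 and 69.6 in cordycepin+EGF. Its log2 fold change with cordycepin was -0.55 in AMPK KO (SE 0.126, adjusted p 0.0727) and 0.02 in WT (SE 0.126, adjusted p 0.945). POLA1, the catalytic subunit of polymerase alpha, had, in AMPK KO, 16.7 and 18.1 RPKM in DMSO, 18.1 and 17.7 in DMSO+EGF, and 13 and 12.6 in cordycepin+EGF. In WT, POLA1 had 16.1 and 14.8 RPKM in DMSO, 14.2 and 16.3 in DMSO+EGF, and 12.8 and 13.2 in cordycepin+EGF. Its cordycepin libraries were below those of DMSO+EGF in both lines, with log2 fold changes of -0.42 in AMPK KO (SE 0.102, adjusted p 0.0806) and -0.18 in WT (SE 0.102, adjusted p 0.41). PCNA had, in AMPK KO, 232 and 251 RPKM in DMSO, 248 and 221 in DMSO+EGF, and 134 and 184 in cordycepin+EGF. In WT, PCNA had 193 and 204 RPKM in DMSO, 176 and 218 in DMSO+EGF, and 159.9 and 215 in cordycepin+EGF. The cordycepin and DMSO+EGF groups overlapped in WT and not in AMPK KO (log2 fold change -0.53, SE 0.199, adjusted p 0.177). RRM2, the small subunit of ribonucleotide reductase, had, in AMPK KO, 25.2 and 26.3 RPKM in DMSO, 27.4 and 26.3 in DMSO+EGF, and 19.9 and 19.5 in cordycepin+EGF. In WT, RRM2 had 25.3 and 27.5 RPKM in DMSO, 24.4 and 27.4 in DMSO+EGF, and 22.5 and 26.4 in cordycepin+EGF. Its AMPK KO cordycepin+EGF values were close to each other and below every other AMPK KO value (log2 fold change -0.39, SE 0.106, adjusted p 0.0967).

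The 2 AMPK KO cordycepin+EGF libraries were unlike each other, and so were the 2 of WT cordycepin+EGF. The members' median difference, replicate 2 minus replicate 3, was -0.18 in AMPK KO and -0.19 in WT on the scaled log2 scale. Replicate 2 of AMPK KO cordycepin+EGF was the shallowest AMPK KO library. Its median member level was the lowest of the 12 (4.37 on the scaled log2 scale, against 4.55 in replicate 3 and 4.53 to 4.74 in the others). Of its reads 5.8% were assigned to long noncoding RNAs, against 3.78% to 4.93% in the others. Without replicate 2 the members' median was -0.20, with 39 genes lower, and without replicate 3 it was -0.35, with 42 lower. The share of the result that goes with library composition was not tested. Since bulk RNA was measured, fewer cells in S phase and less RNA of these genes per cell cannot be told apart.

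**Figure D4:**
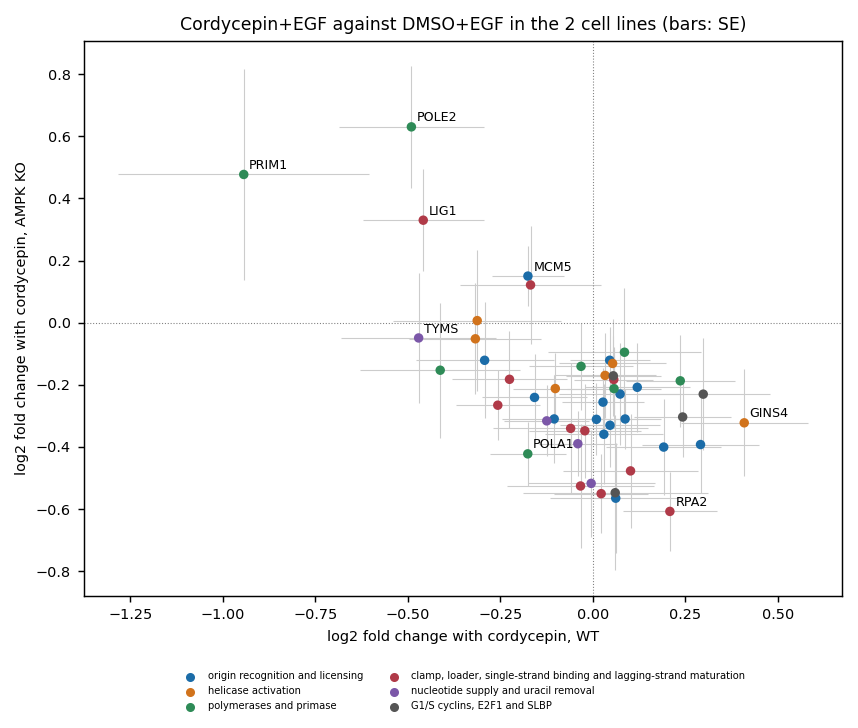
Each point is 1 of the 48 genes coloured by role, with the log2 fold change of cordycepin+EGF over DMSO+EGF in WT on the x axis and in AMPK KO on the y axis, and SE bars. Most points lie below the horizontal line, and PRIM1, POLE2 and LIG1 lie apart at the upper left, lower with cordycepin in WT and higher in AMPK KO.

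Whether the response differed between the lines was tested with an interaction term, the log2 fold change in AMPK KO minus that in WT. For EGF the median over members was 0.01 (all genes, -0.01), 3 genes had a positive term at an unadjusted p under 0.05 (3.3% of all genes) and 1 a negative one (5.38%), and none was called (0% of all genes in either direction). Leaving out 1 library gave between 1 and 3 EGF terms in each direction at this p. For cordycepin the median was -0.26 (all genes, 0.02, and -0.17 for protein-coding genes with a mean of at least 5 RPKM). The term was negative for 37 genes (48.8% of all genes). At an unadjusted p under 0.05, 9 were negative (10.5% of all genes) and 4 positive (10.9%), and none was called (0% of all genes in either direction). Of the 7158 protein-coding genes with a mean of at least 5 RPKM, the term was negative for 4581. It was negative for 1536 and positive for 666 of them at that p, and no test set the members apart from them. With voom RPA2 and CDT1 were called negative (4.37% of all genes) and PRIM1, POLE2 and LIG1 positive (5.45%). Leaving out replicate 2 of WT cordycepin+EGF gave 17 negative terms at an unadjusted p under 0.05, and leaving out its replicate 3 gave 5. Leaving out replicate 3 of AMPK KO DMSO+EGF also gave 5, and replicate 2 of AMPK KO cordycepin+EGF gave 4. With all libraries the negative ones included RPA2 (log2 fold change -0.82, SE 0.18, adjusted p 0.122), GINS4 (-0.73), CDT1 (log2 fold change -0.68, SE 0.222, adjusted p 0.149) and GMNN (-0.63). The positive ones were PRIM1 (log2 fold change 1.42, SE 0.48, adjusted p 0.155), POLE2 (log2 fold change 1.12, SE 0.277, adjusted p 0.122), LIG1 (log2 fold change 0.79, SE 0.232, adjusted p 0.136) and MCM5 (0.33). For 10 members both cordycepin libraries were above both DMSO+EGF libraries in WT and below them in AMPK KO (9.06% of all genes), and for 4, PRIM1, POLE2, LIG1 and MCM5, the order was the opposite (10.1% of all genes). Both lines were lower with cordycepin without overlap for MCM7, POLA1, RFC1 and UNG (3.99% of all genes), and for no member were both higher (8.59%). Across the 48 genes the cordycepin values of the lines, which share no library, had Pearson r = -0.67 and Spearman rho = -0.48. Over all genes tested r was -0.03 and rho -0.10. The EGF values of the lines were also inversely related, with r = -0.52 and rho = -0.50 over the members and -0.09 and -0.16 over all genes. The inverse relation was thus not particular to cordycepin. In each comparison the points of a line share the same 4 libraries, so these correlations describe these libraries.

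Other genes of the pathway were read in lists that do not overlap with the 48. Of 46 further replication and S-phase genes, 44 were tested. In AMPK KO with cordycepin 37 of these were lower (median -0.23), 19 of them at an unadjusted p under 0.05. As lower genes, 10.1% of all genes and 1740 of the 7158 well expressed coding genes reached that p. POLE3, a histone-fold subunit of polymerase epsilon, was called lower (log2 fold change -0.62, SE 0.104, adjusted p 0.049), as were 0.0861% of all genes. That call was lost when either AMPK KO DMSO+EGF library or replicate 2 of AMPK KO cordycepin+EGF was left out. POLE3 had 60.9 and 59.8 RPKM in AMPK KO DMSO+EGF and 37 and 38.6 in AMPK KO cordycepin+EGF. In the same WT groups it had 41.3 and 46.7, and 49.9 and 56.3. In AMPK KO against WT in DMSO+EGF, 15 of the 44 were higher at an unadjusted p under 0.05 (11.1% of all genes). TOPBP1, which helps to fire origins and to activate ATR, was called higher (0.90, SE 0.109, adjusted p 0.0146), as were 0.929% of all genes. Most calls of that comparison over all genes were lost when any single library of it was left out. Whether TOPBP1 kept its call was not followed. TOPBP1 had 25.5 and 28.5 RPKM in WT and 48.7 and 51.6 in AMPK KO. TOP2A, the topoisomerase that untangles replicated DNA, had 91.8 and 111 RPKM in WT DMSO+EGF and 114 and 108 in AMPK KO DMSO+EGF, and 77 and 100 and 67.8 and 93.5 with cordycepin.

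Of 24 regulators of the G1/S step, CDKN1A, which encodes the CDK inhibitor p21, was called higher in AMPK KO in DMSO (log2 fold change 0.93, SE 0.123, adjusted p 0.0228). It had 11 and 10.8 RPKM in WT and 20.5 and 22.8 in AMPK KO, and 0.281% of all genes were called higher there. RB1, the retinoblastoma protein that holds E2F in check, was called higher in AMPK KO in DMSO+EGF (0.81, SE 0.115, adjusted p 0.0202), as were 0.929% of all genes. It had 20.9 and 23.5 RPKM in WT and 38.5 and 39.2 in AMPK KO. Over all genes, most calls in DMSO were lost without either AMPK KO library but not without either WT library. In DMSO+EGF most were lost without any single library, and whether CDKN1A and RB1 kept their calls was not followed. CCND1, the cyclin D through which growth factors reach RB1, had 32.1 and 20.1 RPKM in WT DMSO, 30.1 and 41.8 in WT DMSO+EGF and 19.5 and 23.8 in WT cordycepin+EGF. Its AMPK KO values were 15.2 and 17.7, 17.3 and 15.6, and 15.4 and 23.3 RPKM. The AMPK KO values of CCND1 were below WT in DMSO+EGF, with a log2 fold change of -1.07 and an adjusted p of 0.0671. CCNA2, the S-phase cyclin, had 43.9 and 55.2 RPKM in WT DMSO+EGF, 37 and 42.4 in WT cordycepin+EGF, 49.8 and 51.9 in AMPK KO DMSO+EGF and 31.1 and 41.5 in AMPK KO cordycepin+EGF. CDC25A, the phosphatase that activates CDK2, had 20.7 and 23.4, 20.6 and 28.8, 31 and 31.2, and 17.9 and 21.7 RPKM in the same groups, so its cordycepin libraries were lower without overlap in AMPK KO and overlapped with DMSO+EGF in WT.

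Of 46 mitosis genes, 36 were lower with cordycepin in AMPK KO (median -0.24, 18 at an unadjusted p under 0.05, against 10.1% of all genes) and 41 in WT (median -0.14, 11 at an unadjusted p under 0.05, against 7.13% of all genes). In the AMPK KO line the replication and mitosis lists thus had medians of -0.24 each, while in WT the replication genes had 0.02. The median of well expressed coding genes in AMPK KO was -0.17, as given above, and 1740 of these 7158 genes were lower at an unadjusted p under 0.05. In WT 720 of the 7158 were lower at that p. In AMPK KO against WT in DMSO+EGF, the kinetochore gene NDC80 (0.75, adjusted p 0.0236) and CKAP2 (0.61, adjusted p 0.0499), which binds spindle microtubules, were called higher (0.929% of all genes). RANGAP1 was called lower (-1.62, adjusted p 0.0496), as were 0.807% of all genes. COL1A1, on the list of other cells' markers, was called lower in the same comparison (-0.92, adjusted p 0.0499), at levels of at most 1.21 RPKM. Most calls of this comparison over all genes were lost when any single library of it was left out, and these genes were not followed there.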

How the data were processed

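The authors sequenced stranded, ribosomal RNA-depleted libraries (paired-end, 150 bases), used rsubread for counting against GRCh38.p13 and deposited RPKM values per gene. The depth behind each value was recovered here, since RPKM values are whole multiples of a step. Of 26058 genes, 96.25% came out as whole numbers of reads (tolerance 0.05) in every one of the 12 libraries at the GENCODE 44 exon length, and 99.99% with a searched length. Upper-quartile scaling followed the study. The 22067 genes with a mean of at least 0.5 RPKM were fitted as log2(scaled RPKM + 0.5) with limma 3.58.1 in R 4.3.3 (group means, eBayes with trend, 6 residual degrees of freedom, 8.96 after moderation). Tests were two-sided, with Benjamini-Hochberg adjustment within each of 9 comparisons, and fold changes on this scale understate changes of low genes. The limma fit was checked on simulated data with planted fold changes, and the recovery of reads was not checked in that way.

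Values in every library are given for members called in any comparison, for the 3 members with the smallest p in each two-group comparison, and for PCNA, MCM2, CDC6, CDT1, CCNE1, CCNE2, E2F1, RRM2, TYMS and SLBP. Of the other lists, genes called and CCND1, CCNA2, CDKN1A, CDC25A and TOP2A are named. The interaction genes with an unadjusted p under 0.05, among them GINS4, GMNN and MCM5, were named after their values were seen. Members and lists were chosen with earlier results of these data known. Alternatives were other pseudocounts (0.1 and 1), filters, scalings and fits, voom on the recovered reads, replicate blocks and leaving out each library. A crossed block and a fit without 2 shallow libraries were added after seeing the data. Rows of the table that name no gene (2) were left out.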

Additional observations from a re-analysis of the deposited data

Results flagged for a closer look

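With 2 libraries a group no library could be tested as an outlier. Some members moved in opposite directions in the 2 cell lines, without overlap between the groups in either line, and had an interaction term at an unadjusted p under 0.05. None of these terms passed after adjustment over all genes (adjusted p 0.122 to 0.22 for cordycepin and 0.569 to 0.57 for EGF). Such opposite moves without overlap, at any p, were also common over all genes. With cordycepin 10 members were higher in WT and lower in AMPK KO (9.06% of all genes) and 4 the opposite (10.1%). With EGF 4 members were higher in WT and lower in AMPK KO (5.37% of all genes) and 4 the opposite (5.17%). The values below are log2 fold changes in AMPK KO minus those in WT. With cordycepin the term was -0.82 for RPA2, -0.73 for GINS4, -0.68 for CDT1, -0.59 for ORC6, -0.55 for CCNE1 and -0.40 for ORC5, all lower in AMPK KO and higher in WT. It was 1.42 for PRIM1, 1.12 for POLE2, 0.79 for LIG1 and 0.33 for MCM5, all higher in AMPK KO and lower in WT. With EGF the term was -0.67 for POLD1, 0.38 for RFC1 and 0.33 for ORC5. WT DMSO replicate 3, the shallowest library, enters each EGF term.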

How the results depend on the processing

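No called value changed direction. Medians of the members kept their value within the spread between replicates under every change of pseudocount, filter, scaling and fit tried. Leaving out 1 library moved the median between -0.088 and 0.042 for EGF in WT, between -0.049 and 0.017 for EGF in AMPK KO, between -0.15 (without WT cordycepin+EGF replicate 3) and 0.094 for cordycepin in WT, and between -0.35 and -0.20 for cordycepin in AMPK KO. For AMPK KO against WT it moved between 0.10 and 0.17 in DMSO, between 0.094 and 0.23 in DMSO+EGF and between -0.20 and -0.01 in cordycepin+EGF, for EGF by cell line between -0.065 and 0.083, and for cordycepin by cell line between -0.33 and -0.18. Without the shallowest library of each line the EGF by cell line median was -0.045. The medians for EGF in either line, for cordycepin in WT and for EGF by cell line thus took either sign.

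Numbers of members called at an adjusted p under 0.05 depended more on the fit. With voom on the recovered reads they were 3 for cordycepin in AMPK KO (POLA1, RFC3 and RPA2), 8 for AMPK KO against WT in DMSO, 5 in DMSO+EGF and 1 (TYMS) in cordycepin+EGF, and 5 for cordycepin by cell line. With only the groups compared they were 6 in DMSO+EGF (4.92% of all genes were called higher and 5.12% lower) and 3 for cordycepin by cell line (2.65% and 2.46%). In DMSO+EGF, 1 (ORC2) was left with RPKM as deposited, with median-ratio scaling or without the variance trend. Without any 1 of its 4 libraries, 0 were left. In DMSO, leaving out 1 library gave 0 to 8 called, with 8 called without WT DMSO replicate 3, and 10 were called without the shallowest library of both lines (8.47% of all genes higher and 7.83% lower). That fit gave 4 for cordycepin by cell line (5.7% and 4.12%). For EGF in WT, leaving out 1 library gave 0 or 1, with 1 (LIG1) called without WT DMSO replicate 2. Where a library was left out, its lone partner was assumed to vary like the other groups. The cause of these differences was not tested.

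Replicate numbers were shared between groups. Differences between replicates correlated across genes with r of 0.136 to 0.314 among WT groups, -0.122 to 0.031 among AMPK KO groups and -0.081 to 0.322 between lines. With 2 pairs a comparison and both signs among them, the numbers were not taken to pair the samples. With the replicate block 1 member (ORC2) was called in unstimulated AMPK KO against WT (adjusted p 0.0456, with 0.34% of all genes called higher and 0.19% lower) and 2 after EGF (0.829% and 0.58%). A block within each cell line called 0 and 2 there. In the other comparisons neither block called any member. With crossed numbers the block for cordycepin in AMPK KO called 0. With 2 libraries a group and a median SE of 0.15, small differences on the log2 scale could not be told from replicate spread.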
